A study of Mus musculus with 4 samples.

Results

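The G2 and mitosis genes are 34 genes whose products take a cell from the end of DNA replication through chromosome segregation to the splitting of the cell. They were chosen by symbol and all 34 were found among the 31054 features of the 4 deposited count matrices. Chromosome structure is represented by Mki67 and Top2a, the cyclin-CDK1 engine by Ccna2, Ccnb1, Ccnb2, Cdk1 and Cks2, and the mitotic kinases with their passenger protein by Plk1, Aurka, Aurkb and Birc5. Bub1, Bub1b, Ttk and Mad2l1 belong to the spindle checkpoint, and Cdc20 and Ube2c to the anaphase-promoting complex, the ubiquitin ligase that starts anaphase. The kinetochore genes are Cenpa, Cenpe, Cenpf, Ndc80, Nuf2, Spc25 and Knstrn, the spindle genes Tpx2, Kif11, Hmmr and Nusap1, and the cytokinesis genes Kif20a, Kif23, Prc1, Racgap1, Anln and Ect2.

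The study sorted single Bmi1-expressing intestinal epithelial cells of Bmi1-GFP mice by flow cytometry and profiled them on the 10x Genomics 3′ platform. There were 4 groups with 1 library each, namely embryos at day 12.5 (E12.5), embryos at day 17.5 (E17.5), adult mice and irradiated adult mice. The labels give the genotype Bmi1-GFP, a reporter at the locus of the Polycomb gene Bmi1, to all 4 groups, and they do not give the radiation dose, the time after it, the number of animals pooled or the limits of the sort gate. With 1 library a group no test between groups was possible, so the intervals below are exact 95% intervals for counting error alone and no difference has a replicate check.

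The cell filter kept 4050, 4409, 3597 and 3031 cells, of which 3907, 3479, 3597 and 3031 lay in gut epithelial clusters. Median depth was 18082, 11003, 3607 and 8554 UMIs (unique molecular identifiers, each a counted RNA molecule) per kept cell. Summed over these epithelial cells, 9 epithelial marker genes (Epcam, Cdh1, keratins and claudins) stood between 4011 and 11959 CPM, against 25.3 to 542 CPM for 8 mesenchymal markers. Enteroendocrine-like cells, which release gut hormones, made up most of the adult and irradiated adult cells and many of the E17.5 cells, and tuft-like cells, the chemosensory cells of the gut, were found in both adult libraries only. The gate of the sort can set these shares, so levels are given for all gut epithelial cells and again without these classes. Libraries of any pair shared at most 6 barcodes among the kept cells.

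G2 and mitosis genes are made in one wave. Their promoters are silenced in resting cells by the DREAM complex and switched on late in the cell cycle by the MuvB core together with B-MYB and FOXM1, while the NF-Y factor binds CCAAT boxes nearby. The DNA element that MuvB reads, called the cell cycle genes homology region, has the letters TTTGAA in its usual form. In the gut, dividing cells line the whole early tube, later gather between and at the base of the villi, and in the adult are held to the crypts, while enteroendocrine, tuft, Paneth and goblet cells and villus enterocytes have mostly left the cycle.

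Since such promoter elements are shared among G2 and mitosis genes, the members' promoters were read from RefSeq (build GRCm38.p6, which mm10 is), where 30 of the 34 had an entry. Ccna2, Tpx2, Aurkb and Kif20a had none. Each window ran from 250 bases before to 50 bases after the gene's start and was searched on both strands for TTTGAA, for the variant TTTAAA and for CCAAT, which can share end letters with TTTGAA. The sequences below are up to 200 bases before the start on the gene's own strand, ending before the annotated gene, with every match in capitals (TTCAAA and ATTGG are the same motifs on the other strand). Mki67 and Top2a are shown as the chromosome pair, Plk1 as a kinase with the variant letters, Cdc20 and Kif11 as genes of anaphase and of the spindle, and Anln because its level in tuft-like cells departs from that of the others.
Mki67 (chr7:135716380-135716579, minus strand): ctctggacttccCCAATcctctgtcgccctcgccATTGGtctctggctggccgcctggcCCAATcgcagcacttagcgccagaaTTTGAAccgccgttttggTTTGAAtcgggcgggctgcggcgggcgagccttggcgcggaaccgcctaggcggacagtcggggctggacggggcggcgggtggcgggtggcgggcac
Top2a (chr11:99024190-99024389, minus strand): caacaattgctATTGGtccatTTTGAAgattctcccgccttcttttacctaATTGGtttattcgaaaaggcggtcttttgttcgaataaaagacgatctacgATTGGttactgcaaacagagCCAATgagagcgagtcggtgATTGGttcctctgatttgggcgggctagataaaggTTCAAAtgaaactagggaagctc
Plk1 (chr7:122159235-122159434, plus strand): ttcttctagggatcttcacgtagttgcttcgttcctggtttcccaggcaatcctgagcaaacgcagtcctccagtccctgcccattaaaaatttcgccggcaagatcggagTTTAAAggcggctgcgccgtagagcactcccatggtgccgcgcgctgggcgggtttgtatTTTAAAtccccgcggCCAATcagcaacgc
Cdc20 (chr4:118437353-118437543, minus strand): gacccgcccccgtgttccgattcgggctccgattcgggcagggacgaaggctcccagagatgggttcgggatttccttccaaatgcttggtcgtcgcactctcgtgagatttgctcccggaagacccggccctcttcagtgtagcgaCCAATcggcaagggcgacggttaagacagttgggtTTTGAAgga
Kif11 (chr19:37376182-37376381, plus strand): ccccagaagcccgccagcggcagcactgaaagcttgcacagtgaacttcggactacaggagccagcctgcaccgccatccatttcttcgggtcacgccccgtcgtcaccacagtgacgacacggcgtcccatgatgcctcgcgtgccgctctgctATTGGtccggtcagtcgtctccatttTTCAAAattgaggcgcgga
Anln (chr9:22389207-22389406, minus strand): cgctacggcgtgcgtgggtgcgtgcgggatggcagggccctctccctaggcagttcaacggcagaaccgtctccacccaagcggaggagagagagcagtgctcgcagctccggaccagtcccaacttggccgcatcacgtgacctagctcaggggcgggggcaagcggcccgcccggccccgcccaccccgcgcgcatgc

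TTTGAA was found in 21 of the 30 member windows (70%), against 4893 of the 27025 RefSeq windows of the same length (18.1%). CCAAT was found in 23 of 30 (76.7%) against 37.9% of all windows, and 16 of 30 (53.3%) held 2 or more copies, against 12.2%. TTTAAA was found in 8 of 30 (26.7%) against 13.2%. A window with TTTGAA or TTTAAA and also CCAAT was found for 21 of the 30 (70%) and for 10.9% of all. The windows of 40 other G2 and mitosis genes held TTTGAA in 60%, CCAAT in 67.5% and 2 or more CCAAT copies in 40%. They held TTTAAA in 12.5% and the pairing with CCAAT in 50%, so these letters are not particular to the members. In Anln both TTTGAA copies lie after the start and no CCAAT was found, so its printed stretch has no capitals. Plk1 also has a TTTGAA after its start, outside its printed stretch. Cdc20 has a further CCAAT 8 bases before its start and Top2a one 227 bases before, both outside the printed stretches. These matches describe letters in a window and do not show a bound site.

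Across all gut epithelial cells the 34 genes together held 4564 CPM (4549 to 4579) at E12.5, 3016 CPM (3003 to 3030.0) at E17.5, 873 CPM (862 to 883) in the adult and 229 CPM (224 to 234) in the irradiated adult. CPM relates a gene's UMIs to 1000000 UMIs of those cells and is not scaled to gene length. The order is the same in single cells, where a cell was counted as carrying the wave if it held at least 5 member UMIs after thinning to 2000 UMIs. That share was 62.1% (60.5 to 63.8) at E12.5, 29.04% (27.5 to 30.6) at E17.5, 2.88% (2.31 to 3.55) in the adult and 1.22% (0.828 to 1.72) in the irradiated adult, over 3350, 3327, 2951 and 2548 cells deep enough to be thinned. Without thinning the shares were 85.03%, 46.6%, 5.64% and 3.73%. At E12.5 the typical cell carried the wave, at E17.5 about 3 in 10 did, and in both adult libraries it was a small minority.

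The enteroendocrine-like class, of which no cluster was named at E12.5, held few member UMIs. Outside it the summed level was 4564, 3641, 1440.3 and 496 CPM, and the share of cells was 62.1%, 50.6%, 6.83% (5.47 to 8.39) and 6.19% (4.24 to 8.67). The adult and irradiated adult intervals for the share overlapped there, although their summed levels did not. With tuft-like cells also left out, the adult stood at 1910.1 CPM with 26.3% (21.5 to 31.5) of cells, and the irradiated adult at 537 CPM with 11.7% (8.06 to 16.1). The adult and irradiated adult values over these cells come from 316 and 266 cells that could be thinned.

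**Figure D1:**
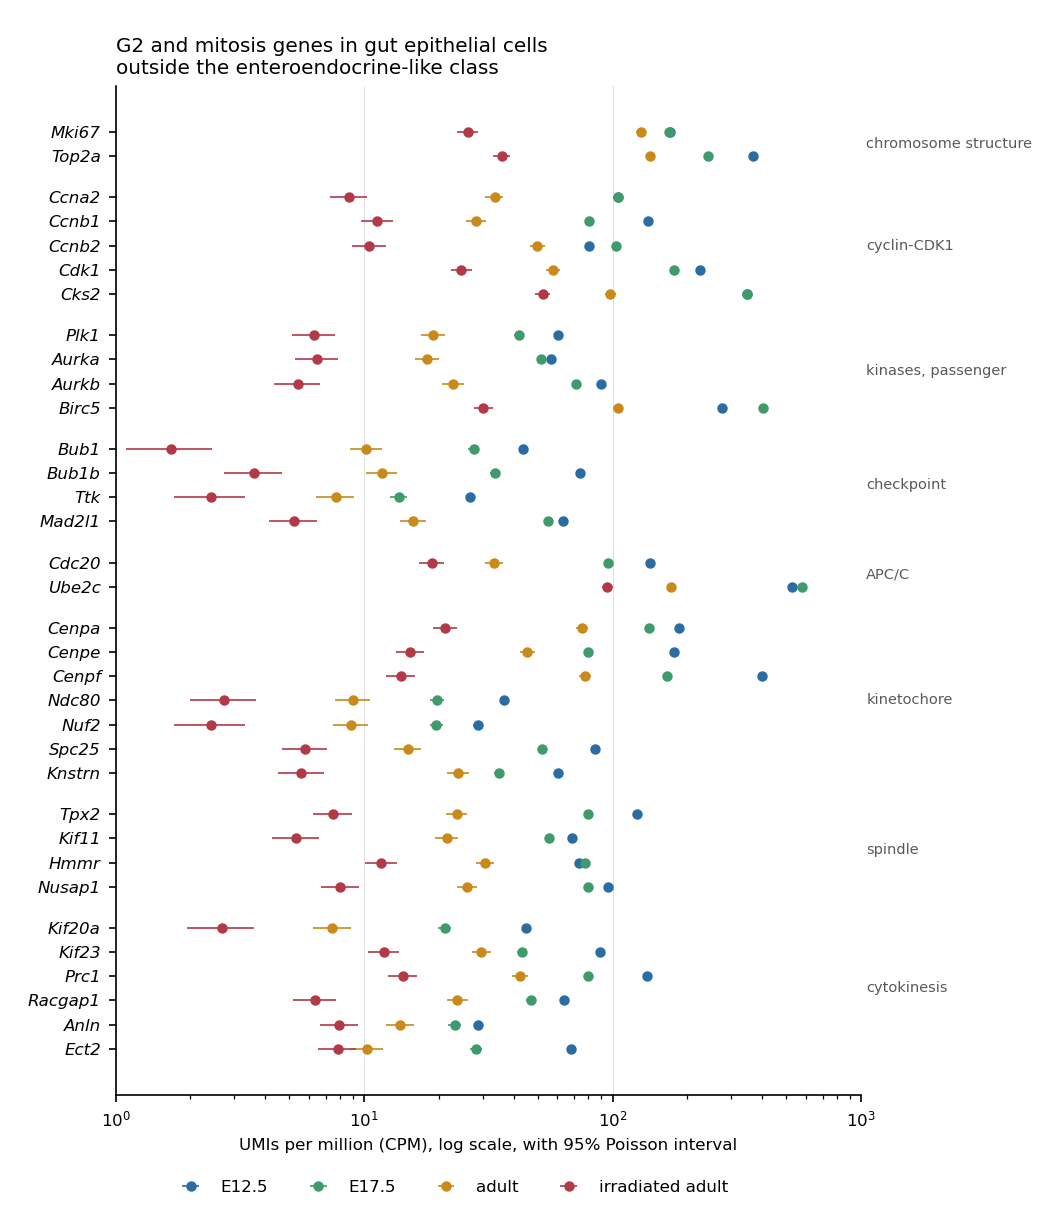
CPM of each of the 34 genes (x axis, log scale) in gut epithelial cells outside the enteroendocrine-like class, with genes in rows grouped by role and one point per library with its 95% Poisson interval. The irradiated adult points sit lowest in all 34 rows, and the E17.5 points lie level with or right of the E12.5 points for Mki67, Ccna2, Ccnb2, Cks2, Birc5, Ube2c and Hmmr.

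The plot of CPM by gene gives these levels, which are listed here in the order E12.5, E17.5, adult and irradiated adult, outside the enteroendocrine-like class. Mki67, which coats mitotic chromosomes and is the usual marker of cycling cells, held 171, 169, 130.2 and 26.1 CPM. The first pair of values lies within counting error of each other. Top2a, the topoisomerase that untangles sister chromatids, held 368, 242, 142 and 35.8 CPM, lower at each step. With tuft-like cells also left out Mki67 stood at 171, 169, 176 and 28.4 CPM. The summed adult level of Mki67 was thus no lower than the embryonic ones, while Top2a went from 242 to 188 CPM. When each cell's CPM was averaged instead, all 34 members, Mki67 among them, were lower in the adult than at E17.5.

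Among the genes of the cyclin-CDK1 engine, Ccna2, the cyclin of S and G2 phase, held 105, 105, 33.5 and 8.70 CPM, equal in both embryos. Ccnb1, the main mitotic cyclin, held 139, 80.5, 28.3 and 11.3 CPM. Ccnb2, its close relative, went the other way between the embryos with 80.2, 103, 49.8 and 10.5 CPM. Cdk1, the kinase that both B cyclins activate, held 226, 177, 57.6 and 24.7 CPM, while Cks2, a small subunit of the CDK complexes, held 349, 347, 98.01 and 52.3 CPM. The B-type cyclins therefore moved in opposite directions between E12.5 and E17.5, under TMM scaling too, with log2 ratios of -0.78 (interval -0.84 to -0.74) for Ccnb1 and 0.35 (interval 0.30 to 0.41) for Ccnb2. The intervals are for the plain ratio, whereas every log2 ratio here adds 1 CPM to both levels.

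Of the mitotic kinases, Plk1 held 60.1, 41.998, 18.96 and 6.28 CPM, Aurka 56.5, 51.4, 17.96 and 6.47 CPM and Aurkb 90.2, 71.3, 22.8 and 5.41 CPM. Plk1 drives entry into mitosis, Aurka ripens the centrosomes and Aurkb corrects faulty attachments as part of the chromosomal passenger complex. Birc5 (survivin), the passenger subunit that holds Aurkb at the centromere, held 276, 404, 105 and 30.2 CPM and was the member with the highest log2 ratio from E12.5 to E17.5, 0.54 (interval 0.52 to 0.57). Aurkb, its partner, had -0.34 in the same comparison.

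The spindle checkpoint holds back anaphase until every kinetochore is attached. Bub1 held 43.7, 27.6, 10.2 and 1.68 CPM, Bub1b 73.8, 33.8, 11.8 and 3.61 CPM, Ttk 26.8, 13.8, 7.69 and 2.42 CPM and Mad2l1 63.4, 55.1, 15.8 and 5.22 CPM. All 4 were lower at each step in CPM. Of the effectors that act once the checkpoint is satisfied, Cdc20, the activator of the anaphase-promoting complex, held 142, 95.9, 33.4 and 18.7 CPM, also lower at each step, and Ube2c, the enzyme that feeds ubiquitin to it, held 528, 577, 172 and 95.3 CPM. Ube2c was thus higher at E17.5 than at E12.5 and kept more of its level than the checkpoint genes in the irradiated adult.

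Kinetochore genes, which build the point where a chromosome meets the spindle, together held 970.2, 512, 255 and 67.1 CPM, close to 2-fold lower at E17.5 than at E12.5. Cenpf, a large coat protein of the kinetochore, held 398, 166, 77.6 and 14.05 CPM and had the lowest log2 ratio of any member from E12.5 to E17.5, -1.26 (interval -1.30 to -1.23). Cenpe, the motor that moves chromosomes to the equator, held 177, 79.4, 45.5 and 15.4 CPM, and Cenpa, the centromeric histone, 184, 140.5, 75.3 and 21.2 CPM. The parts of the NDC80 complex, which grips microtubule ends, held 36.4, 19.6, 9.04 and 2.74 CPM for Ndc80, 28.7, 19.6, 8.86 and 2.42 CPM for Nuf2 and 85.3, 52.3, 14.97 and 5.78 CPM for Spc25. Knstrn, which helps to hold sister chromatids until anaphase, held 60.3, 34.97, 23.9 and 5.59 CPM. Every one of the 7 was lowest in the irradiated adult.

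Spindle genes together held 363, 292, 102 and 32.6 CPM. Tpx2, which activates Aurka on the spindle, held 125, 79.6, 23.6 and 7.52 CPM, and Kif11, the motor that pushes the poles apart, 68.4, 55.7, 21.5 and 5.35 CPM. Hmmr held 73.6, 77.4, 30.7 and 11.7 CPM and Nusap1 96.2, 79.5, 25.999 and 8.02 CPM. Hmmr, a spindle-pole protein, was slightly higher at E17.5 than at E12.5, though not when each cell's CPM was averaged, and Nusap1, which bundles microtubules, was slightly lower there, whereas with TMM scaling, which corrects for composition, Kif11 and Nusap1 also came out higher at E17.5.

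Cytokinesis genes, whose products build the central spindle and the contractile ring, together held 432, 242, 128 and 51.1 CPM. Ect2, the exchange factor that switches on RhoA at the equator, held 67.96, 28.2, 10.3 and 7.83 CPM, and Anln, the scaffold of the ring, held 28.9, 23.1, 13.97 and 7.96 CPM. Kif23 held 89.5, 43.2, 29.6 and 11.998 CPM, Prc1 137, 79.7, 42.4 and 14.3 CPM, Racgap1 63.7, 46.8, 23.8 and 6.34 CPM and Kif20a 45.01, 21.2, 7.45 and 2.67 CPM. Ect2 and Anln were the pair of members nearest to equality between the adult libraries, with log2 ratios of -0.36 (interval -0.74 to -0.06) and -0.74 (interval -1.13 to -0.50).

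The step from E12.5 to E17.5 asks how the wave differs between the early gut tube and the late fetal gut. In all gut epithelial cells 11 of the 34 members were at least 2-fold lower and none was 2-fold higher, where 17.1% of the 14124 genes that reached 50 UMIs in one of the libraries were as much lower and 15.9% as much higher. The median log2 ratio of the members was -0.78 and that of all genes -0.21. Outside the enteroendocrine-like class 6 members were at least 2-fold lower (Cenpf, Ect2, Cenpe, Bub1b, Kif20a and Kif23), against 21% of all genes, so the members' share of 6 in 34 lies near the background. Their median was -0.52 and that of all genes -0.33. Kinetochore and cytokinesis genes supplied 5 of the 6, and the cyclin-CDK1, kinase, anaphase and spindle groups none. Under TMM scaling, which moved the median of all genes to -0.06 and that of the members to -0.22, none of the 34 was 2-fold lower and 11 lay above 0 in place of 4, so all 6 calls and their split by role depend on the scaling.

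The step from E17.5 to the adult, which shares its E17.5 library with the step before, was larger. In all gut epithelial cells 31 of 34 members were at least 2-fold lower, against 14.9% of 13469 genes, with medians of -1.71 and -0.09. Outside the enteroendocrine-like class 24 were (background 18.6%, medians -1.34 and -0.36), and with tuft-like cells left out as well 15 were (background 15.9%, medians -0.94 and -0.43). All 5 cyclin-CDK1 genes, all 4 kinase and passenger genes and all 4 spindle genes were among the 24, with Birc5 lowest at -1.93 (interval -2.01 to -1.87) and Cks2 next at -1.81 (interval -1.90 to -1.75). Mki67 at -0.38 (interval -0.45 to -0.31), Kif23 at -0.53, Knstrn at -0.53 and Top2a at -0.76 were lowered least or nearly so. With tuft-like cells left out the log2 ratios of Mki67, Kif23 and Knstrn were 0.05, -0.10 and -0.12, and under TMM scaling these 3 and Top2a lay above 0. TMM scaling gave 3 members at least 2-fold lower in that set in place of 15 (median -0.59). Averaging each cell's CPM gave 15 in that set (median -0.90), with all 34 members, Mki67 among them, below 0.

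Irradiated adult cells were compared with adult cells, from the same adult library as in the step before, to see which members differ after radiation. In all gut epithelial cells 32 of 34 members were at least 2-fold lower, against 5.53% of 12812 genes, with medians of -1.66 and -0.05. Outside the enteroendocrine-like class 29 were (background 14.5%, medians -1.49 and -0.41), and with tuft-like cells also left out 32 were (background 17%, medians -1.78 and -0.38). The 5 members short of 2-fold outside the enteroendocrine-like class were Cks2 (-0.89), Cdc20 (-0.80), Ube2c (-0.85), Anln (-0.74) and Ect2 (-0.36). The lowest were Cenpf at -2.38 (interval -2.68 to -2.26), Mki67 at -2.27 (interval -2.47 to -2.17), Ccnb2 at -2.14 (interval -2.49 to -2.01) and Bub1 at -2.07.

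How the cells are weighted matters for this last comparison. When each cell's CPM was averaged, so that shallow cells counted as much as deep ones, the median over the members outside the enteroendocrine-like class was -0.39 and 7 members lay above 0, namely Ccnb1, Cdk1, Cks2, Cdc20, Ube2c, Ndc80 and Ect2. By that average 7 members were at least 2-fold lower there in place of 29, and 1 was 2-fold higher. In all gut epithelial cells 17 were 2-fold lower in place of 32, with Cdc20 above 0. An unnamed cluster of 126 irradiated adult cells led by Akr1b8, Mgst1, Clu and Mt1, with a median of 1189.5 UMIs, held 1910.0 CPM of the members, the highest of that library. Its Cdc20 stood at 209 CPM, its Cdk1 at 263 and its Cenpf at 16.5. That cluster holds few UMIs in all, with 269 UMIs of Epcam making 1476 CPM, so its Cenpf value rests on very few UMIs. With tuft-like cells also left out the same averaging gave a median of -1.23 and 21 members 2-fold lower, with Cdc20 alone above 0. In a summed CPM, deep cells low in members weigh more. The 96 Paneth-like cells of the irradiated adult had a median of 98584 UMIs and held 26.8 CPM of the members. In the adult the defensin-rich Paneth-like cluster of 76 cells had a median of 29404 UMIs and held 342 CPM. The part of Paneth-like cells in these ratios was not tested.

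**Figure D2:**
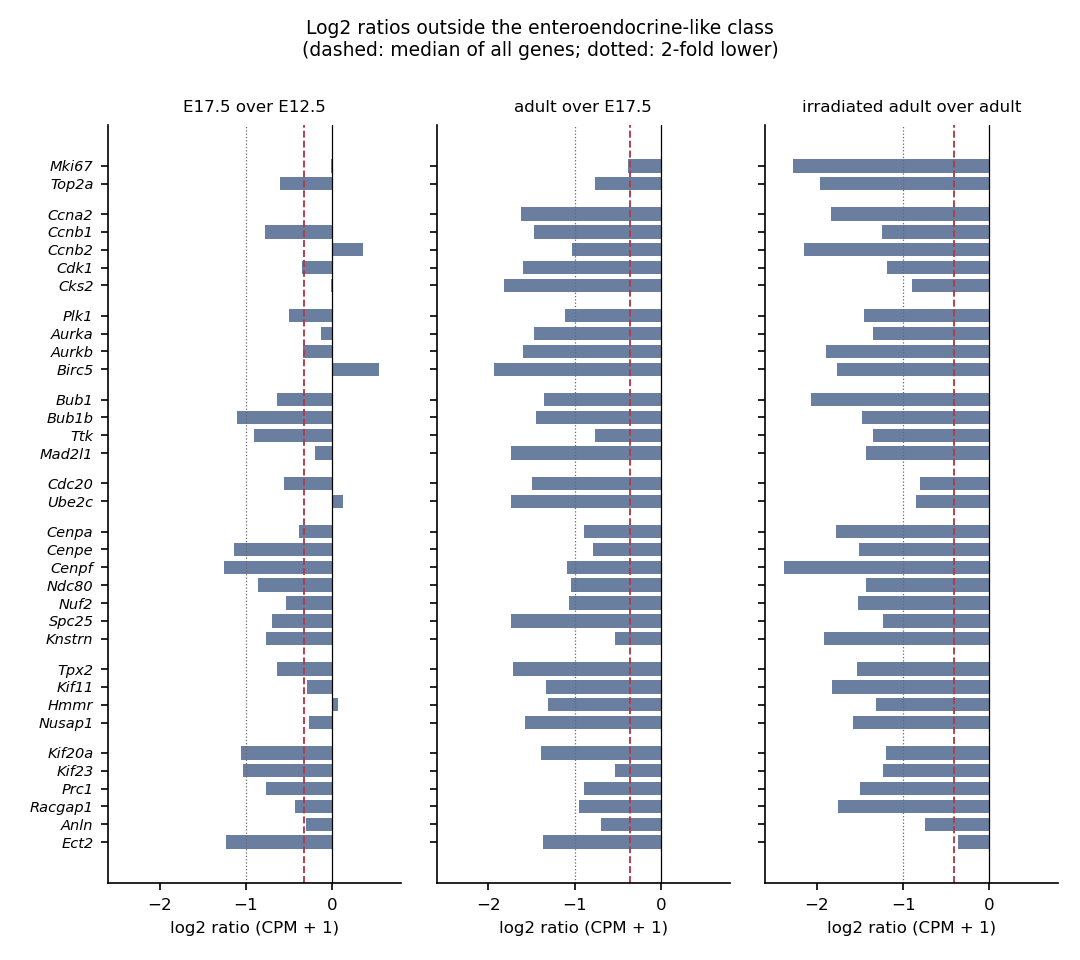
Log2 ratios (x axis, CPM + 1) of the 34 genes for the 3 steps, outside the enteroendocrine-like class, with the dashed line at the median of all genes and the dotted line at a 2-fold lower level. In the left panel 6 bars pass the dotted line, in the middle panel 24 and in the right panel 29.

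The mix of members within the wave also differed between libraries, measured against the members' own total. Of all member UMIs outside the enteroendocrine- and tuft-like classes, Cenpf took 8.73%, 4.55%, 5.53% and 2.89% in the order above, and Mki67 took 3.75%, 4.65%, 9.22% and 5.29%. Birc5 took 6.06%, 11.1%, 7.32% and 6.17%. Ube2c took 11.6%, 15.8%, 12.1% and 19.5% and Cks2 7.65%, 9.52%, 6.70% and 10.5%. The E12.5 wave was thus richest in Cenpf, the E17.5 wave in Birc5, the adult wave in Mki67, and the irradiated adult wave in Ube2c and Cks2.

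By role, kinetochore genes made up 21.3%, 14.1%, 17.3% and 13.1% of the member UMIs and chromosome structure genes 11.8%, 11.3%, 19.1% and 12.5%. The anaphase-promoting complex pair took 14.7%, 18.5%, 14.4% and 23.4%, and the spindle checkpoint 4.55%, 3.58%, 3.22% and 2.60%. In the irradiated adult the 2 anaphase genes therefore held a larger part of the member UMIs than in any other library, and the 4 checkpoint genes a smaller one.

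By cell class at E17.5, epithelial cells given no lineage name held 4330.4 CPM (4307 to 4354), goblet-like cells 4308 CPM (4252 to 4365), enterocyte-like cells 1920.4 CPM (1898 to 1943) and enteroendocrine-like cells 139 CPM (132 to 146). Shares of cells carrying the wave were 58.9%, 66.5%, 26.5% and 0.211% (0.0435 to 0.614). Goblet-like cells of the late fetus, whose leading genes also include the Paneth defensins Defa17 and Defa24, stood level with lineage-less cells, and hormone cells stood far below both. Clusters were built without the members and the other listed cell cycle genes, although correlated genes outside the lists could still shape them.

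The 4 enterocyte-like clusters at E17.5 spread over an order of magnitude. The cluster with 507 CPM of Apoa4, a lipid carrier of absorptive cells, held 3215 CPM of the members. Those with 1087, 4098 and 33800.1 CPM of Apoa4 held 1359.6, 543 and 286. The more Apoa4 a cluster held, the lower its member level, over these 4 clusters. Between the first and the third of them Top2a went from 155 to 17.1 CPM and Ube2c from 526 to 102. In single E17.5 cells outside the enteroendocrine-like class, 26.5% of 499 cells (22.6 to 30.6) with an Apoa4 UMI carried the wave and 59.2% of 1404 cells (56.6 to 61.8) without one.

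The stem cell marker Olfm4 divided the cells the other way. At E17.5 72.02% of 243 cells (65.9 to 77.6) with an Olfm4 UMI carried the wave, against 47.5% of 1660 cells (45.04 to 49.9) without one. In the adult, outside the enteroendocrine- and tuft-like classes, the shares were 36.1% of 166 cells (28.8 to 43.95) and 15.3% of 150 cells (9.98 to 22.1). Only 9 of 266 irradiated adult cells had an Olfm4 UMI, so no comparison was made there. The genes for these splits were picked after the data had been seen, and the splits divide cell classes too.

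Neurog3, the factor that commits cells to the hormone lineage, led a pair of E17.5 clusters with member levels far apart. One of 72 cells led by Neurog3, Olfm4 and Lgr5 held 3744 CPM, with Cdk1 at 191 and Ube2c at 597. The other, of 40 cells, led by Neurog3, Spp1 and Neurod2, held 255 CPM, with Cdk1 at 3.59 and Ube2c at 10.8. Neurog3 itself stood at 99.3 CPM in the first and 2169 in the second. The clusters differ in other markers too. Olfm4 stood at 290.2 CPM in the first, and the second had no Olfm4 UMI. Clu stood at 0.545 CPM in the first and 593 in the second. Further E17.5 clusters led by Spp1 held 1231 and 1495 CPM of Clu. The library also held pancreatic acinar-like and islet-like cells. Whether the second cluster is of the gut or the pancreas was not tested, so the pair is not shown to be steps of 1 lineage. In single cells outside the enteroendocrine-like class 17.5% of 57 cells (8.75 to 29.9) with a Neurog3 UMI carried the wave and 51.6% of 1846 cells (49.3 to 53.9) without one. That set includes the second cluster.

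At E12.5 every gut epithelial cluster held the wave, at unequal shares of cells. The 10 clusters ran from 3692 to 5644 CPM, the highest being an unnamed cluster of 673 cells. Its median depth was 1748 UMIs, but it also held deep cells, which supplied most of its summed UMIs. A cluster of 46 cells led by Vstm2b, Gas6 and Sox17 held 4599 CPM, with the wave in 40.5% (24.8 to 57.9) of its cells at equal depth, and one of 85 cells led by the hindgut gene Hoxb13 4951, with 62.3% (50.6 to 73.1). The highest share was 83.2% (78.5 to 87.2), in a cluster of 305 cells led by Kcne3, Slc17a4 and Coro2a, and the Vstm2b cluster had the lowest. A group of 15 cells led by Gcg, Pyy and Chgb, all hormone cell genes, was left without a name and out of the gut epithelial set, and held 558 CPM. Cells with a UMI of the reporter (eGFP) and cells without one did not differ beyond their intervals, at 62.9% of 140 cells (54.3 to 70.9) and 62.1% of 3210 cells (60.4 to 63.8). For Bmi1 itself the shares were 69.2% of 107 cells (59.5 to 77.7) and 61.9% of 3243 cells (60.2 to 63.6).

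In the adult the wave sat mostly in 1 cluster of 101 lineage-less cells led by Mcm3, Pclaf, Mki67 and Cenpf, with 3513 CPM (3462 to 3565) and 63.5% (53.1 to 73.1) of cells. It held 361 CPM of Top2a, 334 of Mki67 and 408 of Ube2c, with Olfm4 at 2365 CPM. Adult enterocyte-like cells held 1150.3 CPM (1114 to 1187) and Paneth-like cells 466 CPM (445 to 488). Within the Paneth-like class 1 cluster of 141 shallow cells with 1611 CPM of Olfm4 held 1703 CPM and the other, of 76 cells richer in defensins, 342. The first had 7 Paneth markers among its leading genes, but its Lyz1 stood at 2294 CPM against 36537.5 in the second. Its name is thus less sure, and the 466 CPM of the class joins both.

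In the irradiated adult the lineage-less cells were 1 cluster of 96 led by Anxa8, Il33, Krt15 and Ccnd1, with 1395 CPM (1363 to 1428) and 21.7% (13.8 to 31.6) of cells. It held 104 CPM of Top2a, 78.4 of Mki67 and 267 of Ube2c, and Olfm4 stood at 59.2 CPM there. Clu, a gene of injured and regenerating crypts, stood at 266 CPM in it and at 0.972 in the adult cluster. Enterocyte markers were higher in it too, with Apoa1 at 855 and Apoa4 at 431 CPM, against 5.83 and 5.44 in the adult cluster. The lineage-less clusters of the adult and the irradiated adult thus differ in make-up, and their member levels are not like for like. Outside the enteroendocrine- and tuft-like classes 33.3% of 39 cells (19.1 to 50.2) with a Clu UMI carried the wave, against 7.93% of 227 cells (4.77 to 12.2) without one. Paneth-like cells held 26.8 CPM and goblet-like cells 79.98 CPM. Clu stood at 2.89 CPM in the Paneth-like cluster and at 18.7 CPM in the larger goblet-like cluster. The Clu split therefore also divides cell classes, and was not made within 1 class.

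**Figure D3:**
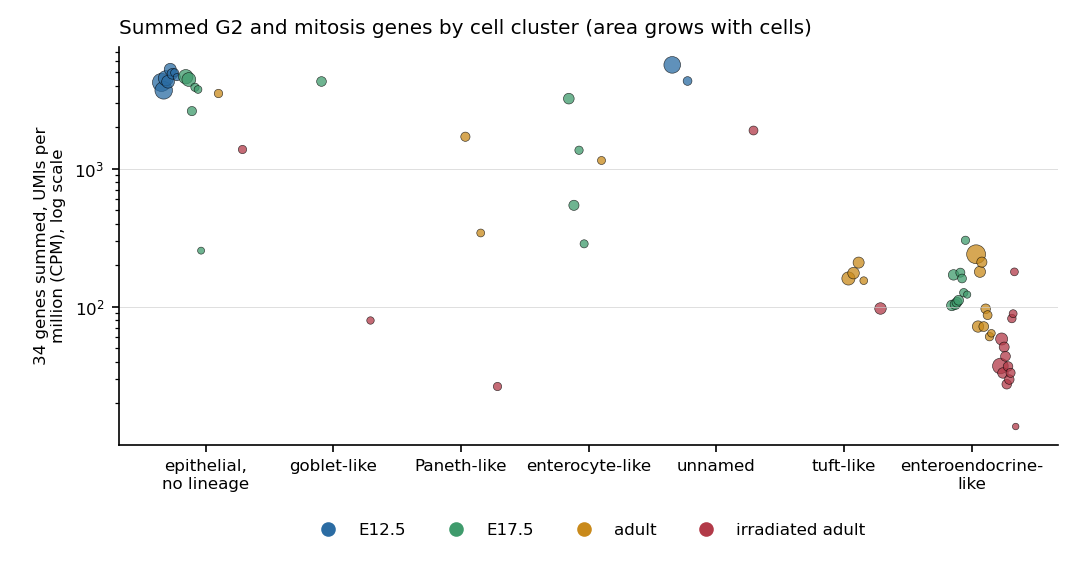
Summed CPM of the 34 genes (y axis, log scale) in each gut epithelial cluster of at least 20 cells, by class on the x axis and library by colour, with larger points for more cells. Enteroendocrine-like clusters lie at or below 303 CPM in the 3 libraries that hold them and tuft-like clusters at or below 209, and the fetal enterocyte-like clusters span from 286 to 3215 CPM.

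Enteroendocrine-like and tuft-like cells show the level of the members in cells that have mostly left the cycle, and serve as the background for the values above. From E17.5 through adult to irradiated adult, enteroendocrine-like cells held 139, 115 and 39.4 CPM, at median depths of 7340, 3188 and 9104.5 UMIs. Their median member stood at 3.21%, 5.95% and 5.23% of its level in the cells outside both classes, whose median depths were 25395, 17074 and 13339 UMIs. Of 2047 thinned enteroendocrine-like cells of the irradiated adult none carried the wave, which allows a share of up to 0.147%. Single members spread around that median, from 1.63% to 11.4% at E17.5, 2.26% to 13.6% in the adult and 1.46% to 37.3% in the irradiated adult. The part of RNA set free from broken cells in these levels was not tested.

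Cenpa, the centromeric histone, stood highest against the other cells in the hormone cells of both adult libraries, at 13.6% and 37.3% of their level. It was followed in the irradiated adult by Spc25 (32.8%) and Mad2l1 (29.7%). Most members had few UMIs in hormone cells, so no count of differences between libraries is given for that class.

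In tuft-like cells Anln and Cenpa lay farther above the median member than in hormone cells. Anln held 16.3 CPM (12.8 to 20.4) in adult tuft-like cells against 13.1 CPM (11.2 to 15.3) in the cells outside both classes, and 16.97 CPM (11.1 to 24.9) against 7.01 CPM (5.71 to 8.51) in the irradiated adult. Cenpa held 40.4 CPM (34.8 to 46.6) against 88.2 CPM (83.1 to 93.6), and 32.6 CPM (24.2 to 43.03) against 19.99 CPM (17.8 to 22.4). As a percentage of the other cells' level Anln thus stood at 124% and 242% and Cenpa at 45.8% and 163%, while the median member stood at 5.50% and 4.48%. Those other cells include the deep Paneth-like cells of the irradiated adult, low in members, whose part in these percentages was not tested.

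Enteroendocrine-like cells of the same libraries held 0.861 and 1.19 CPM of Anln and 11.98 and 7.46 CPM of Cenpa. Both genes were therefore lower in hormone cells than in tuft-like cells of the same libraries. At 2000 UMIs 2.78% of adult tuft-like cells had an Anln UMI and 8.33% a Cenpa UMI, against 0.288% and 2.71% of adult enteroendocrine-like cells. Median depths of the adult classes were 4111 and 3188 UMIs. None of the 900 adult or 235 irradiated adult tuft-like cells carried the wave, which allows up to 0.333% and 1.28%. The part of free RNA in this pair was not tested.

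**Figure D4:**
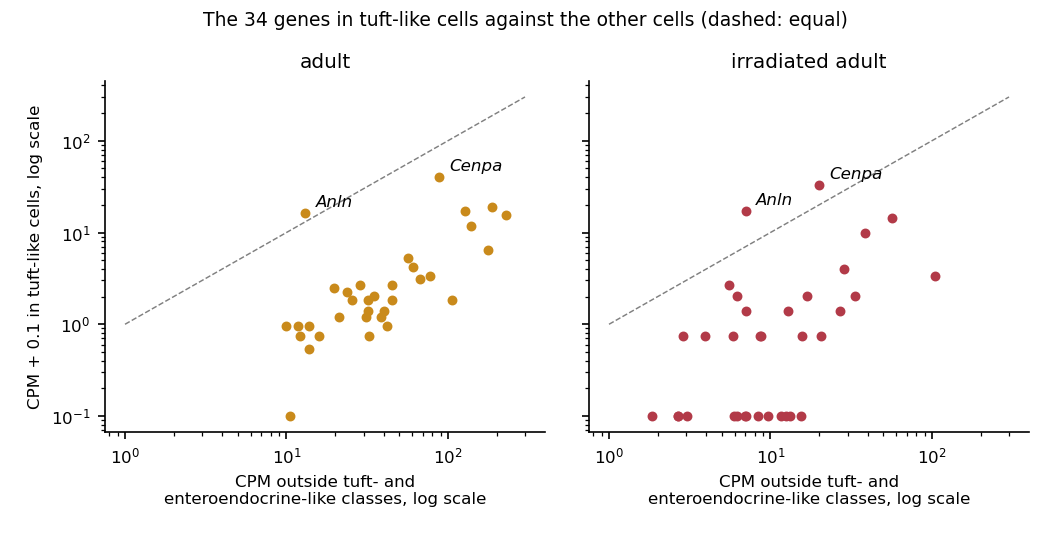
CPM + 0.1 of each of the 34 genes in tuft-like cells (y axis, log scale) against its CPM in cells outside the tuft- and enteroendocrine-like classes (x axis, log scale), 1 point per gene and 1 panel per library, with the dashed line at equal levels. Anln lies above the line in both panels and Cenpa above it in the irradiated adult, whereas the other 32 genes lie below it in both.

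Members varied together from cell to cell. Across E12.5 cells and E17.5 cells outside the enteroendocrine-like class, thinned to 8000 UMIs, all 561 pairs of members had a correlation of log counts above 0 in both libraries, with medians of 0.28 over 3147 cells and 0.27 over 1730 cells. The highest was Ube2c with Cenpf at 0.74 (E12.5) and Birc5 with Ube2c at 0.73 (E17.5). Cells of 1 library share its preparation, so these values are descriptions and carry no test. No such count was made for other genes, so the pairs are not set against a background. Correlations of single members with depth before thinning reached 0.31 at E12.5 and 0.27 at E17.5. Ube2c followed the sum of the other members at 0.78 and 0.80, and Ttk, a sparse gene, at 0.25 and 0.22.

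Their relation to 22 S phase genes differed between the embryos. At E12.5 the correlation with the summed S phase genes was below 0 for 32 of 34 members, lowest for Cenpa (-0.32), Ube2c (-0.31) and Cdc20 (-0.29), and above 0 for Mad2l1 (0.04) and Top2a (0.02). At E17.5 it was above 0 for all 34, highest for Top2a (0.45), Cdk1 (0.34) and Birc5 (0.32). Cdc20 (0.05) and Cenpa (0.10), whose products act in mitosis itself, lay near the low end in both. The E17.5 cells include enterocyte-like clusters with few member UMIs, unlike the E12.5 cells, and their part in this difference was not tested.

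**Figure D5:**
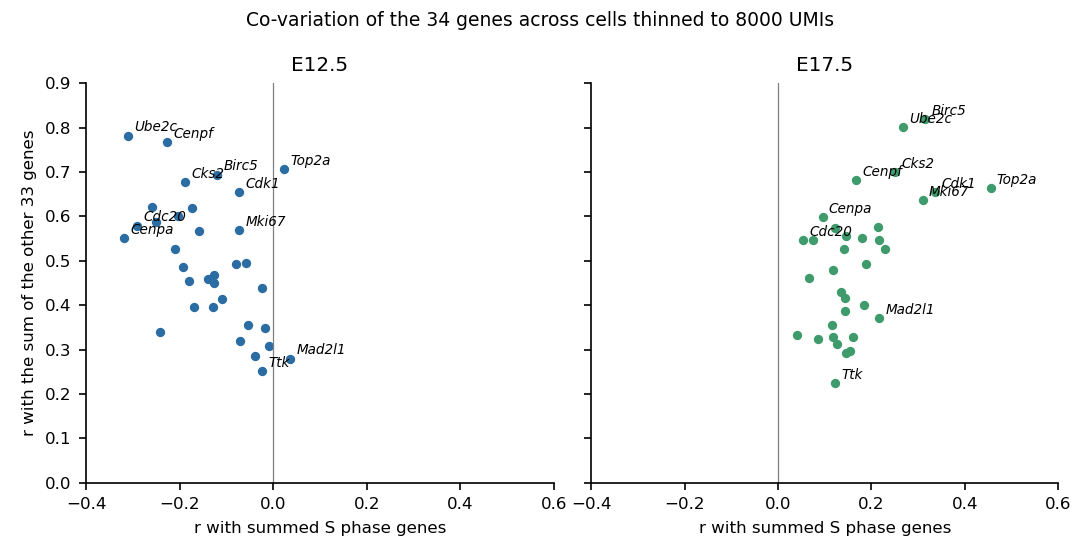
Correlation of each member with the summed S phase genes (x axis) and with the sum of the other 33 members (y axis), 1 point per gene, across cells thinned to 8000 UMIs at E12.5 (left) and E17.5 (right). The E12.5 points lie mostly left of 0 and the E17.5 points all right of it, with Top2a farthest right in the E17.5 panel.

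Outside all the lists, genes most like the summed members in both embryos, by the lower of the correlations at 2000 UMIs among 3989 genes, were Hmgb2 (0.51 and 0.70), H2afx (0.37 and 0.45), H2afz (0.33 and 0.62), Tubb4b, Ube2s, Arl6ip1, Tuba1b, Tubb5 and Hmgb1. They were measured over 3350 cells at E12.5 and 1903 at E17.5. They include chromatin proteins and tubulins.

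The wave was also set beside other parts of the cell cycle, outside the enteroendocrine-like class. The summed level of 22 S phase genes was 2409, 1366, 651 and 260.4 CPM, so that the ratio of the summed members to them was 1.89, 2.67, 2.21 and 1.90. From E12.5 to E17.5, 11 of 22 S phase genes were at least 2-fold lower (median -0.97), and 6 of 50 other G2 and mitosis genes were (median -0.57), where 21% of all genes were. Dtl, Ung and Mcm3 were lowest of the S phase genes, at -1.49, -1.45 and -1.33, while Pcna, the replication clamp, was at 0.83. Among the other G2 and mitosis genes Pimreg was lowest, at -3.01, and Cdca3 highest, at 0.68.

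From E17.5 to the adult 29 of the 50 other G2 and mitosis genes, 10 of 22 S phase genes and 5 of 18 regulators of the wave were at least 2-fold lower, where 18.6% of all genes were. With tuft-like cells also left out these counts were 8, 3 and 2, where 15.9% of all genes were lower. Cks1b, the relative of Cks2, held 183 and 32.8 CPM (log2 ratio -2.44), listed as E17.5 and adult. Cdkn1b, an inhibitor of CDKs, went the other way with 18.2 and 45.7 CPM (log2 ratio 1.28) and was the only regulator at least 2-fold higher, where 10.2% of all genes were. With tuft-like cells also left out no regulator was, and Cdkn1b stood at 18.2 and 26.1 CPM (log2 ratio 0.50).

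After irradiation 33 of the 49 other G2 and mitosis genes that could be compared, 14 of 22 S phase genes and 6 of 18 regulators were at least 2-fold lower, where 14.5% of all genes were. Cdkn1a (p21), a CDK inhibitor that p53 switches on, held 130.4 and 492 CPM (log2 ratio 1.91) in the adult and the irradiated adult. Psrc1 and Gtse1, both spindle-associated, were also higher, at 4.11 and 33.1 CPM (log2 ratio 2.74) and 2.46 and 9.70 CPM (log2 ratio 1.63). Cdkn1a, Psrc1 and Gtse1 were the only genes of the 90 on the lists that were at least 2-fold higher. That is a smaller share than the 5.15% of all genes that were. In enteroendocrine-like cells Psrc1 also stood higher, with a log2 ratio of 2.78. Outside the enteroendocrine- and tuft-like classes, 12.9% of 139 irradiated adult cells (7.86 to 19.7) with a Cdkn1a UMI carried the wave. Without one it was 10.2% of 127 cells (5.56 to 16.9). In the adult the shares were 18.8% of 48 cells (8.95 to 32.6) and 27.6% of 268 cells (22.3 to 33.4). A link between Cdkn1a and the member levels was not tested.

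Cells that carried the wave were deeper than those that did not. Their median was 22959.5 against 16202 UMIs at E12.5, 30221 against 22452 at E17.5, 43130.0 against 4635 in the adult and 46946 against 8813 in the irradiated adult, outside the enteroendocrine-like class. Thinning sets every cell to the same depth before the count, but cells under 2000 UMIs drop out, and deep cells weigh more in a summed CPM.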

How the data were processed

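Single cells of 4 libraries were profiled with the 10x Chromium 3′ chemistry, per the labels' protocols. The deposited matrices hold UMI counts per gene and barcode, made with Cell Ranger 3.1.0 and build mm10, per the submitters' processing notes. No deposited barcode had under 500 UMIs. Barcodes passed as cells if they held 500 or more genes and no more than 20% mitochondrial UMIs. The doublet caller's own threshold marked 0, 26, 3 and 1 barcodes in the order E12.5, E17.5, adult and irradiated adult, so the highest doublet scores were removed instead, at 0.8% per 1000 barcodes (176, 193, 191 and 153 cells).

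Each library was clustered on 2000 variable genes without the listed cell cycle genes (scanpy 1.11.5, Leiden resolution 1), and a cluster was named from listed markers by rules that were changed once the clusters were known. UMIs were summed over cells and given as CPM with exact Poisson 95% intervals. Ratios are log2 of CPM + 1 for genes that reached 50 UMIs in one of the libraries, called past 2-fold. Shares of cells use cells thinned to 2000 UMIs, with Clopper-Pearson 95% intervals. A share of 0 is given the limit of 3 counts. Intervals cover counting error only.

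Text names all 34 members and, from the other lists, genes among the 3 highest and the 3 lowest ratios of a comparison. The members and lists were chosen with earlier results of these data known. The splits of cells by single genes and the leaving out of tuft-like cells were chosen after seeing the data. Alternatives were TMM factors (edgeR 4.0.16), the mean of each cell's CPM, other pseudocounts, count minimums, thinning depths, filters and resolutions. The ratio code was tested on simulated data. Of the 10 genes most like the members, 1 is not reported here.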

Additional observations from a re-analysis of the deposited data

Results flagged for a closer look

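Barcodes that failed the cell filter were used in no comparison, and they too held member UMIs. Summed over them the members stood at 3612 CPM (3520 to 3706) at E12.5, 1373 CPM (1291 to 1460) at E17.5, 699.6 CPM (680 to 720) in the adult and 172 CPM (164 to 181) in the irradiated adult. These came from 990, 630, 2499 and 2812 barcodes with median depths of 1276.5, 808.5, 1606 and 2381.5 UMIs. The order of the libraries is that of the kept gut epithelial cells, at 4564, 3016, 873 and 229 CPM, and each summed value lies below its counterpart. The share of barcodes with at least 5 member UMIs at 2000 UMIs does not follow that: the failed barcodes gave 72.0% (interval 66.3 to 77.2, n = 275), 30% (18.8 to 43.2, n = 60), 3.65% (2.61 to 4.95, n = 1069) and 0.622% (0.299 to 1.14, n = 1607) in the same order, against 62.1%, 29.04%, 2.88% and 1.22% of kept cells. No sample without cells was available as a control, so the signal is set only against the limit that a count of 0 allows.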

How the results depend on the processing

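No paired analysis was possible because each group is 1 library and no result comes from a test. No median log2 ratio of the members changed sign in the alternatives run. Of the alternatives, 44 of 60 medians and 36 of 76 shares stayed within the spread of the members or the counting interval. The cause of the values that did not stay was not tested. Some of those that stayed could not move. The lower count minimum kept the same members throughout, and so did the higher one except for irradiated adult over adult. No tuft-like cells were named at E12.5 or E17.5, and all kept cells of both adult libraries were gut epithelial. These counts therefore overstate how many settings put the results to a test. Averaging each cell's CPM gave -1.29 for E17.5 over E12.5, -2.11 for adult over E17.5 and -0.97 for irradiated adult over adult, and, outside the enteroendocrine-like class, -2.30 and -0.39 for the latter pair. A pseudocount of 10 CPM gave -1.21 and -0.89 for the latter pair, and -0.96 and -0.88 outside the class; 0.1 CPM gave -1.98 for irradiated adult over adult. The stricter cell filter (at least 1000 genes, at most 10% mitochondrial UMIs) gave -2.26 and -1.29. TMM factors gave -0.22 for E17.5 over E12.5 and -1.14 for irradiated adult over adult, outside the class. Without tuft-like cells as well, adult over E17.5 was -0.94 and irradiated adult over adult -1.78.

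Shares of cells follow the depth and the UMI limit. At E12.5, where both sets hold the same cells, the share was 39.3% at 1000 UMIs, 75.6% at 4000, 85.0% without thinning, 72.9% with at least 3 member UMIs and 47.4% with at least 8. At E17.5 the same settings gave 17.05%, 37.0%, 46.6%, 34.7% and 21.7% in all gut epithelial cells and 29.4%, 63.6%, 79.1%, 60.1% and 37.8% outside the enteroendocrine-like class. In the adult they gave 1.08%, 6.64%, 5.64%, 5.12% and 1.76%, and outside the class 2.76%, 14.1%, 14.1%, 11.6% and 4.28%, with 10.7% under the stricter filter and 26.3% without tuft-like cells. In the irradiated adult 1000 UMIs, no thinning and at least 8 member UMIs gave 0.617%, 3.73% and 0.589%, and outside the class 2.84%, 16.3% and 2.99%, with 3.00% at resolution 0.5 and 11.7% without tuft-like cells. The adult share outside the class was above the irradiated adult one as reported (6.83% and 6.19%) and below it without thinning and at 1000 UMIs.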

Other observations

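The sorted cells also included cells outside the gut epithelium, and their member levels were as follows. At E17.5 mesenchymal-like cells held 5685 CPM (5524 to 5850) over 133 cells, mesothelial-like cells 2961 CPM (2715 to 3224) over 22, pancreatic acinar-like cells 2382 CPM (2346 to 2418) over 535 and smooth-muscle-like cells 2194 CPM (2093 to 2300) over 104. Islet-like cells held 182 CPM (161 to 205) over 136 cells, near the 139 CPM of the E17.5 enteroendocrine-like cells. At E12.5 pancreatic progenitor-like cells held 4220 CPM (4129 to 4312) over 92 cells, between the values of the gut epithelial clusters.

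Outside the lists, the genes most opposite to the summed members in both embryos at 2000 UMIs were Ftl1, with correlations of -0.20 at E12.5 and -0.27 at E17.5, then Hist1h2bc, at -0.14 and -0.16, and Anxa2, at -0.13 and -0.14. Ftl1 and Fth1, which was also among the 10, encode the chains of the iron store ferritin. These values are weak and describe cells that share a library and a depth.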
